A study of Homo sapiens with 6 samples.

Results

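ATP-binding cassette (ABC) transporters were compared between Caco2 cells resistant to 10 µM methotrexate (MTX) and parental Caco2 cells. The members are the genes whose annotated symbol runs from ABCA to ABCG followed by a number, pseudogenes left out. Of 45 genes of this pattern in RefSeq, 41 had a probe set that the platform annotation assigns to them alone, out of 19775 genes with such a probe set on the array. These 41 genes were represented by 92 probe sets. The other 4 genes were not analysed here. A gene was read through its brightest probe set, and for the pumps that expel drugs all probe sets were read.

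Caco2 is a line from a human colon carcinoma, known for cells that polarise and form a brush border in dense culture, and MTX is a folate analog that blocks the synthesis of nucleotides. The resistant group (3 arrays) held Caco2 cells that had become able to grow in 10 µM MTX by stepwise selection, and the parental group (3 arrays) held the sensitive cells they came from, with no other treatment named in the labels. The methods put resistant cells in medium without glycine, hypoxanthine and thymidine and with dialysed serum, and the other cells in standard medium with serum, so that the medium, the presence of the drug and resistance cannot be told apart in this comparison. Each group is 1 cell line, and nothing in the labels says whether its 3 samples came from separate cultures. The p-values therefore reflect the spread among these arrays alone, and that spread may be technical.

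ABC proteins bind and hydrolyse ATP, and most of them use it to move a substrate across a membrane. In the intestine, members of subfamilies B, C and G line the apical or the basolateral side of the enterocyte and send drugs and conjugates back to the lumen or on to the blood. Subfamily A and part of subfamily G move sterols and phospholipids, subfamily D works in peroxisomes and lysosomes, and ABCE1 and the ABCF proteins have no membrane part and act on ribosomes. ABCC1 to ABCC5 and ABCG2 can carry MTX out of cells.

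Values are probe set signals divided by the median signal of the array, and are called array medians below. They are levels of RNA, not of protein or transport, and levels of different probe sets are not comparable with one another. A probe set was tested when its mean over the 6 arrays was at least 1 array median. A gene is said to rise or fall in resistant cells where limma gave a two-sided Benjamini-Hochberg adjusted p under 0.05 over the 26563 tested probe sets, and changes are on the log2 scale, resistant over parental, with the standard error. The array medians were 10.6 to 11.5 signal units in resistant cells and 11.1 to 12.8 in parental cells, and the 3′ to 5′ signal ratio of GAPDH was 0.904 to 0.967 in resistant cells and 0.955 to 0.987 in parental cells. Parental array 3 stood apart from the other parental arrays: its correlation with the resistant arrays was 0.935 to 0.939, against 0.914 to 0.929 for parental arrays 1 and 2, and its correlation with these 2 arrays was 0.949 and 0.946, against 0.966 between them. Epithelial keratin KRT18 was the brightest of 12 epithelial markers, whose summed level was 2390 to 2487 array medians in resistant cells and 1564 to 1922 in parental cells, while the enterocyte genes SI, ALPI and FABP1 stayed under the median on all arrays. CDX1 and CDX2 were also below the filter used for testing. Of the 7 epithelial markers tested, 5 rose in resistant cells (KRT20, VIL1, LGALS4, KRT8 and KRT18), beside 7.37% of all tested genes. EPCAM (0.12 ± 0.10) and CDH1 (-0.21 ± 0.13) did not pass the test. The part of the epithelial markers in the ABC results was not tested. The sum of 8 fibroblast markers was 9.25 to 10.1 in resistant cells and 6.55 to 6.92 in parental cells, with COL1A2, COL3A1, PDGFRA and PDGFRB under the median on all arrays. LUM gave 3.27, 2.92 and 1.504 on the resistant arrays and 0.198, 0.352 and 0.265 on the parental arrays, so that it entered the test only through the resistant arrays. The sum over immune and endothelial markers was 10.6 to 13.7 in resistant cells and 10.7 to 22.0 in parental cells, with PTPRC, CD3D, MS4A1 and CDH5 under the median on all arrays. In RNA of whole cultures, fewer cells of a kind and less RNA per cell cannot be told apart.

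Promoter sequences of 3 of the genes that changed are shown first, because they carry, or lack, short motifs recognised by factors known to act on some ABC genes. The antioxidant response core TGACNNNGC, bound by NRF2, and the xenobiotic response core GCGTG, bound by the aryl hydrocarbon receptor, were searched on both strands, and the matches are in capitals. Each sequence is the 250 bases before the start of the gene in RefSeq on GRCh38.p14, read 5′ to 3′ on the strand of the gene (the minus strand in all 3 cases). The window is chr13:95301452-95301701 for ABCC4, the ABC gene with the lowest adjusted p, chr2:219218959-219219208 for ABCB6 and chr1:229558708-229558957 for ABCB10.
ABCC4: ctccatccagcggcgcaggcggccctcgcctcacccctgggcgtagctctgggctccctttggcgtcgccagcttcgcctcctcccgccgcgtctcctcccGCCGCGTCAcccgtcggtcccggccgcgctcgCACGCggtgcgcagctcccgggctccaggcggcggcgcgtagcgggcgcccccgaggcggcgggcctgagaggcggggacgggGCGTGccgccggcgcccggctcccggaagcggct
ABCB6: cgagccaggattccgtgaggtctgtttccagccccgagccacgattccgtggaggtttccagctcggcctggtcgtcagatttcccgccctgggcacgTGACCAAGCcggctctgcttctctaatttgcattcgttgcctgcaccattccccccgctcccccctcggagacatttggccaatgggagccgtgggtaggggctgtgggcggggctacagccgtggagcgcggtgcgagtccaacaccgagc
ABCB10: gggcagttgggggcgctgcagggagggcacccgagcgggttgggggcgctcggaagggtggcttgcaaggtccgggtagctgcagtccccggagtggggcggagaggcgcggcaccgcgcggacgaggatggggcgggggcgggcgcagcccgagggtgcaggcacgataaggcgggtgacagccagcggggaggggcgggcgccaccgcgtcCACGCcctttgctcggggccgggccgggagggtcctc

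The ABCC4 promoter held 1 antioxidant core on its minus strand and 2 xenobiotic cores in this stretch, with 1 more 29 bases after the start. ABCB6 held 1 antioxidant core and no xenobiotic core. ABCB10 held a xenobiotic core before the start and another after it, and no antioxidant core. ABCG2 has 5 start sites in the table, some with overlapping windows, of which 3 held 2 xenobiotic cores each and 1 held an antioxidant core. ABCC5 held 1 xenobiotic core and ABCC2 neither motif. The search covered 300 bases per start. ABCC1, ABCC3 and ABCG1 had no promoter sequence available and were not searched. The antioxidant core was present in 13.35% of all 35116 promoters and in 12 of 53 promoters of ABC genes (22.64%). The xenobiotic core was present in 36.54% of all promoters and in 23 of 53 of ABC genes (43.4%). A match is a description of these letters and says nothing about whether a factor binds there. Of the factors, NRF2 (NFE2L2) gave a change of 0.08 ± 0.13 (adjusted p = 0.728) and the aryl hydrocarbon receptor (AHR) averaged 47.1 array medians in resistant cells and 28.2 in parental cells (0.76 ± 0.22, adjusted p = 0.0526).

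In resistant cells 4 ABC genes rose and 2 fell among the 21 that passed the filter. ABCB10, ABCB6, ABCG2 and ABCC3 rose, by 1.42- to 1.87-fold, and ABCC4 and ABCG1 fell, by 2.42- and 3.62-fold. The genes that rose were 4 of 21, beside 7.37% of all 11849 tested genes, and the genes that fell were 2 of 21, beside 5.05% of all tested genes; in either direction all tested genes gave 12.4%. At a change of at least 2-fold as well, 0 ABC genes rose and 2 fell, beside 3.37% and 2.17% of all tested genes and 5.54% in either direction. By limma, at an unadjusted p under 0.05, 5 of 21 were higher and 2 lower, beside 17.3% and 13.5% of all tested genes, so that the first share is near the background and the second below it. The methods' t-test with the same adjustment called 0 ABC genes (lowest adjusted p 0.0932), beside 1.62% of all tested genes. Unadjusted, it gave 7 higher and 3 lower, beside 14.3% and 10.3%, and at 2-fold or more 0 and 2, beside 3.54% and 2.41%. The 3 resistant arrays lay wholly above the 3 parental arrays for 7 ABC genes (20.2% of all tested genes) and wholly below them for 3 (15.2%), beside 35.5% of all tested genes in either direction. The median change was 0.14 over the 21 ABC genes and 0.02 over all tested genes. Over the 42 tested probe sets of these genes, 4 were higher and 4 lower, beside 5.75% and 4.27% of all tested probe sets and 10% in either direction.

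**Figure D1:**
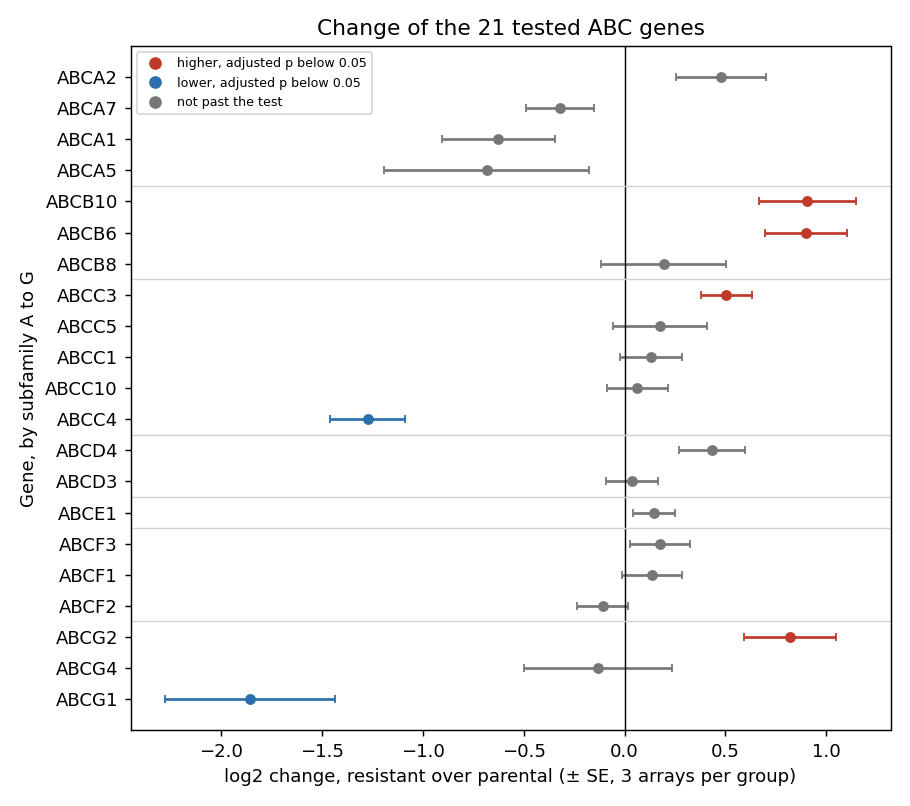
Change in resistant over parental cells of the 21 tested ABC genes, grouped by subfamily from A to G. The horizontal axis is the log2 change with its standard error (3 arrays per group), and colour marks an adjusted p under 0.05. ABCG1 (-1.86) and ABCC4 (-1.27) lie farthest to the left, and ABCB10 (0.91), ABCB6 (0.90) and ABCG2 (0.82) farthest to the right.

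The drug efflux pumps that passed the test did not all move one way. Of 11 such genes listed, 10 were annotated (ABCC6 had no probe set of its own) and 6 were tested. Of these 6, 2 rose (ABCG2 and ABCC3) and 1 fell (ABCC4), beside 7.37% and 5.05% of all tested genes. Of the 6 genes known to carry MTX, 5 were tested, with the same 2 that rose and 1 that fell. Over all 16 tested probe sets of the efflux pumps, 2 were higher and 3 lower, beside 5.75% and 4.27% of all tested probe sets. The 3 lower ones all belong to ABCC4.

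ABCC4 (MRP4, on chromosome 13) exports cyclic nucleotides, prostaglandins and antifolates. Its brightest probe set, 203196_at, gave 19.8, 21.1 and 15.4 array medians on the resistant arrays, against 44.2, 36.8 and 56.3 on the parental arrays. The groups do not overlap, and every resistant array is well under the lowest parental one. The mean was 18.8 ± 2.97 in resistant cells and 45.7 ± 9.84 in parental cells (SD, n = 3 each), a fall of 2.42-fold (-1.27 ± 0.19, adjusted p = 0.00322). The second probe set gave 5.95, 7.16 and 6.37 array medians on the resistant arrays, against 17.8, 13.8 and 18.3 on the parental arrays (-1.35 ± 0.17, adjusted p = 0.00142). The third gave 5.28, 6.18 and 5.16 on the resistant arrays, against 12.2, 8.52 and 15.1 on the parental arrays (-1.07 ± 0.22, adjusted p = 0.0148). All 3 tested probe sets therefore fell, and the fourth stayed under the filter. ABCC4 also passed the test with each single array left out, with changes between -1.42 and -1.11.

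ABCG2 (BCRP, chromosome 4) sits on the apical membrane of the enterocyte and returns drugs, MTX among them, to the lumen. Its single probe set, 209735_at, gave 20.0, 19.7 and 19.2 array medians on the resistant arrays, against 11.1, 7.90 and 15.8 on the parental arrays. The resistant arrays are nearly level, and the parental arrays spread widely below them. The change was 0.82 ± 0.23 (1.77-fold, adjusted p = 0.0487), just inside the threshold. Without parental array 3, whose value lies closest to the resistant ones, it was 1.07 with an adjusted p of 0.000676. Leaving out any other array gave adjusted p-values of 0.109 to 0.159.

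ABCC3 (MRP3, chromosome 17) exports glucuronides, bile salts and folates through the basolateral membrane. Its brightest probe set, 208161_s_at, gave 69.5, 75.4 and 77.0 array medians on the resistant arrays, against 49.5, 59.5 and 48.1 on the parental arrays. The groups do not overlap, and the change was 0.50 ± 0.13 (1.42-fold, adjusted p = 0.0342). The next probe set was also wholly higher, at 30.9, 33.0 and 32.3 on the resistant arrays and 24.1, 27.5 and 16.1 on the parental arrays, without passing the test (0.54 ± 0.19, adjusted p = 0.102). The dimmest, 242553_at, gave 2.78, 3.07 and 2.09 on the resistant arrays and 1.81, 1.59 and 0.912 on the parental arrays (0.92 ± 0.33, adjusted p = 0.103). The remaining 2 probe sets are of the type that can share probes with other transcripts, and their changes were 0.17 and 0.005. With single arrays left out ABCC3 passed the test only without parental array 2 (0.60, adjusted p = 0.0222) and without parental array 3 (0.45, adjusted p = 0.0136).

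ABCC1, ABCC5 and ABCC10 did not pass the test. ABCC1 (MRP1), a broad exporter of glutathione conjugates, gave 19.4, 20.8 and 16.6 array medians on the resistant arrays and 16.1, 16.2 and 19.5 on the parental arrays, and the groups overlap. Its change was 0.13 ± 0.15, with a 95% interval of -0.21 to 0.48, and the second probe set gave 0.29 ± 0.22. ABCC5 (MRP5), an exporter of nucleotide analogs and folates, gave 4.02, 3.44 and 4.57 on the resistant arrays and 2.64, 3.80 and 4.36 on the parental arrays. Its change was 0.18 ± 0.23 (95% interval -0.34 to 0.70), while the other 2 probe sets gave 0.60 ± 0.27 (adjusted p = 0.184) and -0.28 ± 0.37 (adjusted p = 0.670). The sign thus differed between probe sets of ABCC5. ABCC10 (MRP7), which exports taxanes, gave a change of 0.06 ± 0.15 (95% interval -0.28 to 0.41), and its second probe set one of -0.18 ± 0.20. The sign of ABCC10 turned without further scaling of the deposited signals (-0.018) and with the mean over its probe sets (-0.057), and that of ABCC5 without parental array 1 (-0.032).

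The other 4 listed pumps were below the filter in both cell lines. ABCB1 (P-glycoprotein), the classic pump of multidrug resistance, gave 0.505, 0.689 and 0.0696 array medians on the resistant arrays and 0.883, 1.21 and 0.558 on the parental arrays. Its second probe set averaged 0.447 in resistant cells and 0.733 in parental cells. ABCC2 (MRP2), the apical exporter of conjugates, gave 0.036, 0.321 and 0.304 on the resistant arrays and 0.0541, 0.320 and 0.938 on the parental arrays. ABCB5 and ABCC11 were also under the filter with all their probe sets. Signals of this size were not tested, and no fold is given for them.

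**Figure D2:**
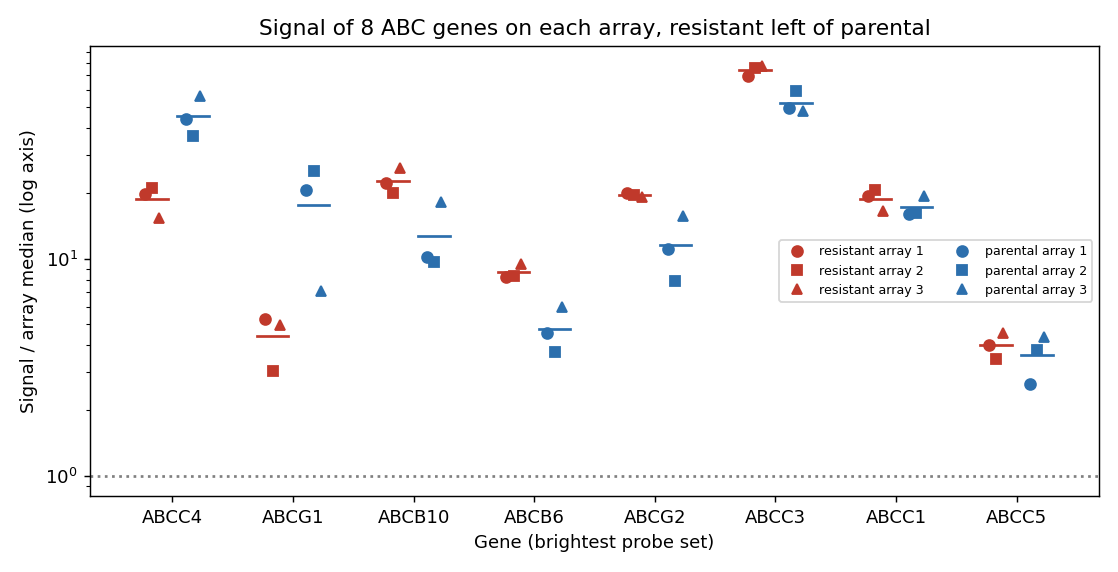
Signal of 8 ABC genes (brightest probe set) on each array, in array medians on a log axis, with the 3 resistant arrays left of the 3 parental arrays and a line at each mean. For ABCC4 and ABCG1 all resistant arrays lie below all parental arrays, for ABCB10, ABCB6, ABCG2 and ABCC3 above them, and for ABCC1 and ABCC5 the groups overlap; the dotted line is the array median.

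Among the mitochondrial half-transporters, 2 of 3 tested members of subfamily B rose, beside 7.37% of all tested genes. ABCB10, of the inner membrane, is needed for haem synthesis in red cell precursors of the mouse. Its single probe set, 223320_s_at, gave 22.4, 20.1 and 26.3 array medians on the resistant arrays, against 10.2, 9.63 and 18.3 on the parental arrays (chromosome 1). The groups do not overlap, although parental array 3 is within reach of the lowest resistant array, and the change was 0.91 ± 0.24 (1.87-fold, adjusted p = 0.0418). ABCB6, a porphyrin transporter that carries the Langereis blood group, gave 8.24, 8.33 and 9.48 on the resistant arrays, against 4.53, 3.70 and 5.97 on the parental arrays (chromosome 2, 203192_at). Here too the lowest resistant array is above the highest parental array, and the change was 0.90 ± 0.20 (1.87-fold, adjusted p = 0.0226). The second probe set of ABCB6 was under the filter and not tested, with means of 0.462 array medians in resistant cells and 0.638 in parental cells. ABCB8, a subunit of a mitochondrial potassium channel, gave a change of 0.19 ± 0.31 (adjusted p = 0.728), and its second probe set one of the other sign (-0.29 ± 0.50, adjusted p = 0.744). Without parental array 3 the changes of ABCB10 and ABCB6 were 1.20 and 1.08, with adjusted p-values of 0.000192 and 0.00108, and with any other array left out neither passed (adjusted p of 0.101 to 0.154 for ABCB10 and of 0.0627 to 0.0979 for ABCB6). Of 11 tested partners in haem and iron-sulphur synthesis 1 rose and 0 fell, beside 7.37% and 5.05% of all tested genes. Their median change was 0.34. The 1 that rose was CPOX, the coproporphyrinogen oxidase (26.1 array medians in resistant cells and 16.6 in parental cells, 1.58-fold, adjusted p = 0.0277). At an unadjusted p under 0.05, 5 of 11 were higher and 2 lower by limma, beside 17.3% and 13.5% of all tested genes. ABCB4, ABCB9 and ABCB11 were below the filter.

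ABCG1, which loads cholesterol onto HDL, had the largest change of the 21 genes by size. Its brightest probe set, 204567_s_at, gave 5.31, 3.03 and 4.93 array medians on the resistant arrays, against 20.8, 25.4 and 7.12 on the parental arrays (chromosome 21). The resistant arrays are all lower, but parental array 3 is nearer to them than to the other parental arrays. The mean was 4.42 ± 1.22 in resistant cells and 17.8 ± 9.50 in parental cells (SD, n = 3 each), and the change was -1.86 ± 0.42 (adjusted p = 0.0236). The second probe set, which gave 4.23, 3.41 and 3.03 on the resistant arrays and 10.7, 11.02 and 4.14 on the parental arrays, did not pass the test (-1.16 ± 0.35, adjusted p = 0.0609). The other 2 gave -1.02 ± 0.29 (adjusted p = 0.0504) and -0.36 ± 0.42 (adjusted p = 0.624). All 4 probe sets thus had the same sign, and only the brightest passed. Without parental array 3 the change was -2.42 (adjusted p = 3.94e-05), and with any other array left out it was -2.01 to -1.50 with adjusted p-values of 0.0650 to 0.105.

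**Figure D3:**
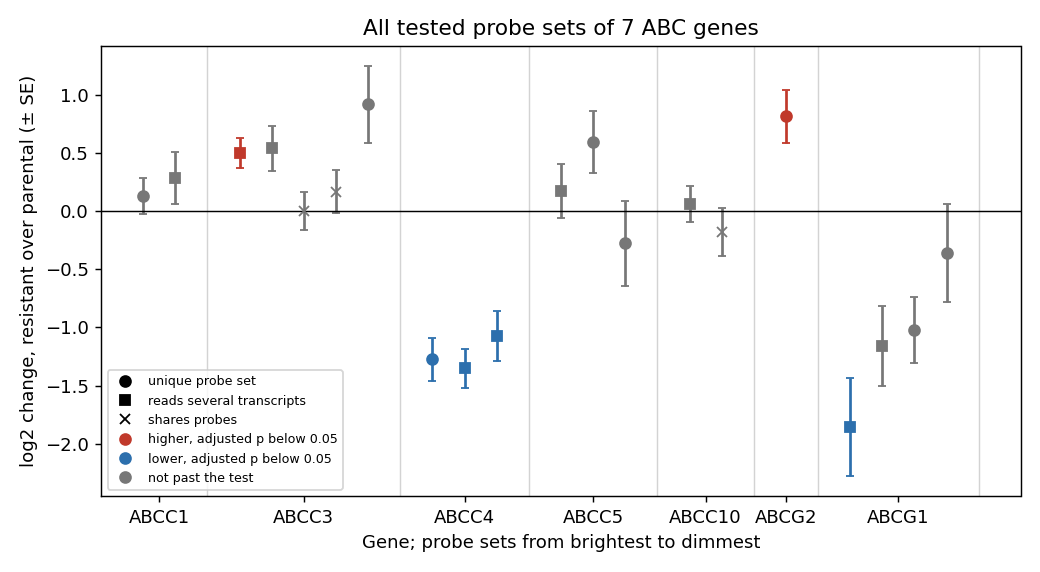
Change of every tested probe set of 7 ABC genes, brightest first within a gene, as log2 of resistant over parental with its standard error. Symbols give the type of probe set and colours the test; the 3 probe sets of ABCC4 lie between -1.35 and -1.07, those of ABCC3 between 0.005 and 0.92, and those of ABCG1 between -1.86 and -0.36.

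The remaining sterol and lipid transporters gave values that did not pass the test. ABCA1, which loads cholesterol onto lipid-poor apolipoprotein A-I, gave 3.68, 2.84 and 2.95 array medians on the resistant arrays and 6.0, 6.16 and 3.06 on the parental arrays (-0.63 ± 0.28, adjusted p = 0.186). As for ABCG1, parental array 3 lies with the resistant arrays. ABCA5 gave 0.883, 1.32 and 2.28 on the resistant arrays and 3.93, 2.69 and 1.04 on the parental arrays (-0.68 ± 0.51, adjusted p = 0.422). ABCA7 was lower on every resistant array, at 4.04, 4.23 and 4.05 against 4.77, 5.55 and 5.11 on the parental arrays, without passing the test (-0.32 ± 0.17, adjusted p = 0.252). ABCA2, an endolysosomal member, gave a change of 0.48 ± 0.22 (adjusted p = 0.198), and its second probe set one of 0.80 ± 0.24 (adjusted p = 0.0641). Without parental array 3, ABCA1 and ABCA5 also fell and ABCA2 also rose, in a fit whose share of all tested genes was not counted. ABCG4, a close relative of ABCG1, gave a change of -0.13 ± 0.37 (adjusted p = 0.850). ABCA3, ABCA4, ABCA6, ABCA8, ABCA9, ABCA12, ABCA13, ABCG5 and ABCG8 were below the filter.

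ABCA1 and ABCG1 are known targets of the liver X receptors (LXR). Of 9 other LXR targets tested, 1 rose and 0 fell, beside 7.37% and 5.05% of all tested genes. The 1 that rose was SMPDL3A, a phosphodiesterase, which averaged 3.33 array medians in resistant cells and 1.61 in parental cells (2.09-fold, adjusted p = 0.0252). At an unadjusted p under 0.05, limma gave 1 of 9 higher and 1 lower (PLTP), no more than the 17.3% and 13.5% of all tested genes, and the median change of these 9 genes was -0.03. NR1H3, which encodes LXR alpha, gave a change of -0.24 ± 0.19 (adjusted p = 0.449). Of 14 tested nuclear receptors and other regulators of ABC genes, 2 rose and 0 fell, beside 7.37% and 5.05% of all tested genes. At an unadjusted p under 0.05 limma gave 4 of 14 higher and 1 lower (PPARD), beside 17.3% and 13.5% of all tested genes. NR0B2 (SHP), the repressor of bile acid synthesis, gave 2.42, 2.55 and 1.05 array medians on the resistant arrays and 0.108, 0.109 and 0.274 on the parental arrays, so that its parental level was under the median on all arrays. NR5A2 (LRH-1), the receptor that SHP represses, gave 2.95, 2.78 and 2.45 on the resistant arrays and 1.00, 1.05 and 1.56 on the parental arrays (2.31-fold, adjusted p = 0.0288). NR0B2 passed the filter only through its level in resistant cells, which fixed the direction of its call. It is 1 of the 2 regulators that rose and of the 4 higher at an unadjusted p under 0.05, and no weight is put on it.

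Of the 6 tested members with roles in peroxisomes, in lysosomes or on ribosomes, 0 passed the limma test, and 1 (ABCD4) was higher at an unadjusted p under 0.05, near the 17.3% of all tested genes. ABCD3, which brings long-chain acyl-CoA into peroxisomes, gave a change of 0.04 ± 0.13 (95% interval -0.25 to 0.33). ABCD4, of the lysosomal route of vitamin B12, gave 5.99, 5.94 and 6.70 array medians on the resistant arrays and 4.54, 4.34 and 4.90 on the parental arrays. The groups do not overlap, and the change of 0.43 ± 0.16 did not pass the test (adjusted p = 0.122). ABCE1, which splits ribosomes after termination, gave 98.8, 98.5 and 106.8 on the resistant arrays and 89.3, 95.4 and 90.2 on the parental arrays (0.15 ± 0.10, adjusted p = 0.402). ABCF1 and ABCF3 gave changes of 0.14 ± 0.15 and 0.18 ± 0.15, and ABCF2 one of -0.11 ± 0.13, with 1 of its other probe sets at -0.64 ± 0.22 (adjusted p = 0.0911). ABCD2 was below the filter. Of 8 tested peroxisomal partners 1 rose, the acyl-CoA binding tether ACBD5 (1.45-fold, adjusted p = 0.0368). Of 10 tested partners of ABCE1 and the ABCF proteins 1 fell, the release factor ETF1 (1.47-fold lower, adjusted p = 0.0317). Among all tested genes, 7.37% rose and 5.05% fell. Of 9 scaffolds and anchors of pumps tested, such as NHERF1 and EZR, 0 rose and 0 fell by limma, with 1 higher (MSN) at an unadjusted p under 0.05, beside 17.3% of all tested genes.

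The antigen peptide transporters TAP1 and TAP2 belong to subfamily B by sequence but not by symbol. They gave changes of 0.36 ± 0.22 (adjusted p = 0.337) and 0.10 ± 0.18 (adjusted p = 0.763). Of 10 tested genes of the peptide loading complex and the immunoproteasome 0 rose and 0 fell by limma, beside 7.37% and 5.05% of all tested genes. At an unadjusted p under 0.05, 2 were higher (PDIA3 and ERAP2), near the 17.3% of all tested genes.

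CFTR, the chloride channel that belongs to subfamily C by sequence, gave 25.9, 22.9 and 22.3 array medians on the resistant arrays, against 4.56, 5.76 and 6.30 on the parental arrays (4.31-fold, 2.11 ± 0.17, adjusted p = 9.87e-05).

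The median change by subfamily was -0.47 over 4 genes of A, 0.90 over 3 of B, 0.13 over 5 of C, 0.24 over 2 of D, 0.14 over 3 of F and -0.13 over 3 of G, and ABCE1 stood alone. The remaining members under the filter were ABCC8, ABCC9 and ABCC12. In all 20 ABC genes were under it, with means over the 6 arrays of 0.121 (ABCG8) to 0.962 (ABCB9) array medians.

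Parental array 3 also stood apart for single members. On the log2 scale its difference from the mean of the other parental arrays was 0.89 for ABCB10, 0.76 for ABCG2 and 0.54 for ABCB6, and -1.69 for ABCG1, -0.99 for ABCA1 and -1.64 for ABCA5, in each case toward the resistant arrays. For ABCC4 it was 0.48 and for ABCC3 -0.17, in both cases away from the resistant arrays. The median difference over the 21 ABC genes was 0.14, and over all tested genes -0.04. With this array left out, 5 ABC genes rose and 4 fell. The share of all tested genes that passed in that fit was not counted. These numbers are therefore not read as particular to ABC genes.

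**Figure D4:**
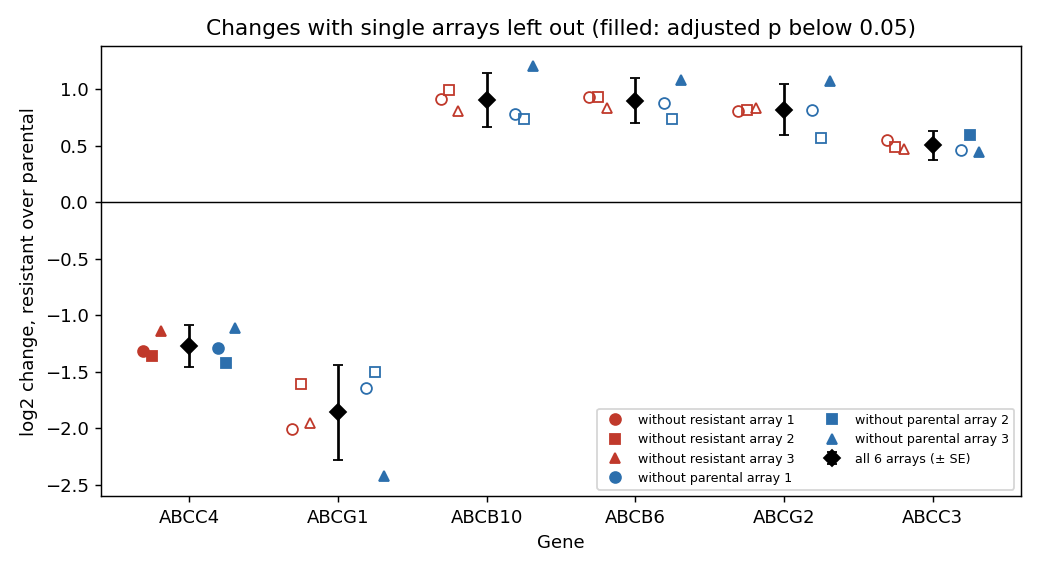
Change of the 6 ABC genes that passed the test, with all 6 arrays (diamonds, with the standard error) and with each array left out in turn, as log2 of resistant over parental. Filled symbols have an adjusted p under 0.05; ABCC4 is filled throughout, and without parental array 3 all 6 genes are filled.

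The genes next to the changed members were read as a description. For each member the 5 nearest tested genes on either side were taken in RefSeq order. Among all tested genes, 7.37% rose and 5.05% fell. Around ABCC4, 3 of 10 neighbours fell and 1 rose, with a median change of -0.52. UGGT2 (-1.995, adjusted p = 0.00334), MBNL2 (-1.44, adjusted p = 0.00386) and RAP2A (-1.29, adjusted p = 0.000974), which fell, lie next to each other on one side, and DNAJC3 between them and ABCC4 gave -0.90 (adjusted p = 0.0554). SPRY2, at the far end of the other side, rose (0.66, adjusted p = 0.0303). Around ABCG1, the trefoil factors TFF3 (4.90, adjusted p = 0.0001) and TFF1 (1.503, adjusted p = 0.0362) rose and TFF2 fell (-2.24, adjusted p = 0.00154), with a median of 0.25 over the 10 neighbours. Around ABCB6 2 of 10 neighbours rose (IHH and ANKZF1), and around ABCB10 (AGT), ABCC3 (RSAD1) and ABCG2 (NUDT9) 1 of 10 rose, with 0 that fell at these 4 loci. A count of 1 of 10 is near the share of all tested genes that rose.

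**Figure D5:**
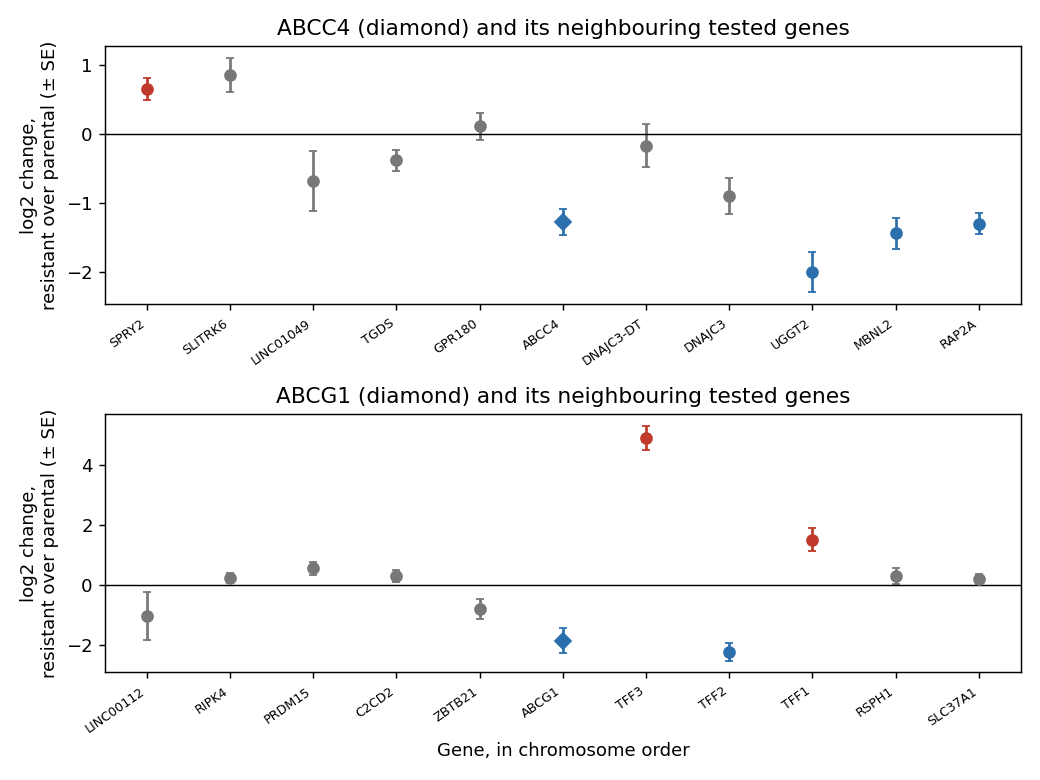
Change of ABCC4 and ABCG1 (diamonds) and of the 5 nearest tested genes on each side, in chromosome order and not to scale in distance, as log2 of resistant over parental with its standard error. Colour marks an adjusted p under 0.05; UGGT2, MBNL2 and RAP2A fell along with ABCC4, while TFF3 and TFF1 rose and TFF2 fell beside ABCG1.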

How the data were processed

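RNA of 3 resistant and 3 parental samples had been hybridised to Affymetrix HG U133 Plus 2.0 arrays. The authors deposited 1 linear intensity per probe set and array, and the submitters' processing notes name MAS5. Its version is not stated there, nor is the scaling target. Columns outside the 6 samples numbered 0. Of 54675 probe sets, 62 controls were left out. Signals were scaled by array, each to the median of that array (the first step of the study's methods), exact zeros were set to 0.05 signal units, and log2 was taken. Those that averaged 1 array median or more over the 6 arrays, 26563 in all, were tested with limma 3.58.1 (lmFit and eBayes with an intensity trend, R 4.3.3), two-sided, with Benjamini-Hochberg adjustment over all of them. The procedure was tested on simulated data. With 3 arrays a group the smallest p of an exact permutation test is 0.1, and it was not used.

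Gene names came from GEO's platform annotation, updated to RefSeq (GRCh38.p14): 41091 probe sets had 1 symbol (41037 matched RefSeq), 1801 had several and 11721 were not listed. Probe sets with several symbols named no gene. Probe sets of the types _s_at and _a_at can read several transcripts, and those of the type _x_at can share probes with other genes. The array table holds no detection calls, and the number of arrays limits the precision.

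The members and lists were chosen with earlier results of these data known. Named were all changed ABC genes with their arrays, all efflux pumps with their probe sets, every other member by subfamily, and up to 3 changed members of each other list; naming of further list members and of neighbours followed inspection of their values. The alternatives comprised a filter at 3 array medians, no filter, deposited signals without scaling, quantile normalization and low signals raised to the 25th percentile. They also comprised an offset of 0.5 array medians, no intensity trend, a block for the replicate number and an unpaired t-test in place of limma. The last alternatives were leaving out each array, the mean over probe sets, unique probe sets alone and a 2-fold threshold.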

Additional observations from a re-analysis of the deposited data

How the results depend on the processing

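The numbers of ABC genes that rose and fell, 4 and 2 of 21, stayed the same with a filter at 3 array medians, with low signals raised and with an offset. ABCC4 fell under every setting except the unpaired t-test (-1.42 to -1.11 over all settings). By the unpaired t-test 0 ABC genes rose and 0 fell, while 192 of all 11849 tested genes passed adjusted. At an unadjusted p under 0.05 it gave 7 and 3, beside 1698 and 1224 of all tested genes. At 2-fold or more as well it gave 0 and 2, beside 420 and 286. The ABC genes that rose and fell were 1 and 2 with no filter (ABCB6, and ABCC4 with ABCG1). Without further scaling they were also 1 and 2. The numbers were 0 and 1 (ABCC4) without an intensity trend, and 2 and 2 after quantile normalization (ABCB6 and ABCC3 rose). They were 2 and 1 of 14 genes with unique probe sets alone, 3 and 1 with the mean over probe sets, and 0 and 2 with a 2-fold threshold in addition. With single arrays left out, 0 to 5 ABC genes rose and 1 to 4 fell, the highest counts being without parental array 3 (ABCA2 joined those that rose, ABCA1 and ABCA5 those that fell); ABCC4 alone passed without parental array 1 or any resistant array, and ABCC3 and ABCC4 passed without parental array 2. Where an array is left out of a group of 3, fewer samples are fitted. The share of all tested genes that passed was counted only for the main fit, the 2-fold threshold and the unpaired t-test. For all tested probe sets it was counted in the main fit alone. Counts under the other settings are therefore not read as particular to ABC genes. Of the 16 efflux probe sets, 2 were higher and 3 lower. The numbers were 0 and 0 by the unpaired t-test, and 0 and 3 with no filter and without further scaling. They were 0 and 2 without a trend, 1 and 3 after quantile normalization and 1 and 1 with unique probe sets alone. With the 2-fold threshold they were 0 and 3, and with single arrays left out 0 to 2 and 2 to 3. The median change of ABC genes, 0.14, turned to -0.046 with unique probe sets alone (fewer genes were tested), and was 0.08 to 0.17 with single arrays left out. The cause of the other shifts was not tested. For 9 single ABC genes (the 6 that changed, ABCC1, ABCC5 and ABCC10), 102 values under the alternatives stayed on their side of the threshold and 49 that had passed no longer did. The 102 include every value of ABCC1, ABCC5 and ABCC10 (17, 17 and 16), which never passed. Of the genes that changed, ABCC4 failed to pass in 1 of 17 settings, ABCB6 in 7 of 17 and ABCG1 in 9 of 17. ABCB10 failed in 10 of 16, and ABCC3 and ABCG2 each in 11 of 17. Groups share replicate numbers, but the same-numbered samples did not deviate together (correlations of -0.02 for each of the 3 pairs), so the numbers were not taken as pairs; with the replicate number as a block, 2 genes rose (ABCB10 and ABCB6) and 2 fell (ABCC4 and ABCG1), 0 efflux probe sets were higher and 3 lower, and the median change was 0.14. The planned search of protein sequences for the ABC signature was not run. With 3 arrays a group, changes near the filter are measured poorly.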
